A study of Homo sapiens with 12 samples.

Results

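The comparison set 4 libraries of acute myeloid leukaemia cells exposed to pioglitazone against 4 libraries of the same cell lines exposed to the solvent DMSO, which are 8 of the 12 libraries of the series. All libraries of the labelled groups that belong to this contrast entered it. The pioglitazone group was treated at 10 µM for 12 h and the DMSO group received solvent for 12 h. The lines were MOLM-14, MV4-11, OCI-AML3 and KG-1a, and each gave 1 library per treatment. The remaining 4 libraries, of the same lines exposed to darglitazone at 10 µM for 12 h, entered the low-count filter, the scaling and the fit. In the fit they helped estimate the spread and the level of each line. Where a DMSO library is left out below, its line still enters through its darglitazone library. The cell line was thus the replicate (n = 4 per group), the libraries were paired by line, and no repeat culture of a line was measured. Cell line is a term of the fit, so differences in level between lines do not enter the p-values. P-values measure how far the treatment differences vary from line to line, with the darglitazone libraries included, and not a spread between repeat cultures.

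Pioglitazone is a thiazolidinedione, a class of insulin-sensitising drugs that bind PPARγ, a nuclear receptor that pairs with a retinoid X receptor (RXR) on DNA and switches on genes of lipid uptake, storage and oxidation. Thiazolidinediones also bind mitochondrial proteins, among them mitoNEET (CISD1) and the mitochondrial pyruvate carrier (MPC1 and MPC2). MOLM-14 and MV4-11 are monocytic lines with KMT2A fusions, OCI-AML3 carries mutant NPM1, and KG-1a is a primitive CD34+ line. Established lines stand for 1 clone each and hold no stroma or normal blood cells.

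The defining markers of myeloid leukaemia cells (CD33, SPI1, PTPRC, CEBPA, MYB, RUNX1, ITGAL and CD44) were above 0 in all 8 libraries. They summed to between 1414 and 3267 CPM (counts per mega-count of the library). The marker sums of this paragraph are not scaled by the trimmed mean of M values (TMM). CPM of single genes and transcripts below are TMM-scaled unless stated otherwise. Markers of fibroblasts and epithelium summed to at most 57.81 CPM, and those of T and NK cells to between 50.51 and 538.9 CPM, highest in KG-1a, a line known for lymphoid genes. Total estimated counts ran from 1.1 M (mega-counts) for OCI-AML3 with pioglitazone to 64.24 M for OCI-AML3 with DMSO. Entries of ribosomal DNA origin took 23.62% of the counts of the KG-1a pioglitazone library and 6.19% in OCI-AML3 with pioglitazone. The DMSO libraries held 0.18% or less. These 2 libraries stood apart, and values without them are given where they matter.

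Of 15424 genes tested, edgeR's quasi-likelihood test with Benjamini-Hochberg adjustment called 0 at an adjusted p under 0.05 (0% of genes tested), and the smallest adjusted p, that of the desaturase gene SCD, was 0.171. DESeq2 with the same model called 74 genes (33 higher and 41 lower), and limma-voom called 0. Without adjustment, 322 genes (2.09%) were higher and 597 genes (3.87%) were lower at the 0.05 level in edgeR. The split leaned to lower values under TMM scaling (65% of these genes) and less so under upper-quartile scaling (53.5%) and in DESeq2 (54.1%). It turned to higher values without the pioglitazone libraries of KG-1a and OCI-AML3 (45.9% lower, 184 of 401 genes) and with all libraries thinned to the shallowest (47.0% lower, 376 of 800 genes). The log2 ratio of pioglitazone over DMSO was positive in all 4 lines for 870 genes (5.64%) and negative in all 4 lines for 1546 genes (10.0%). Over all genes tested, 7173 log2 fold changes were positive and 8251 were negative. By line, 7431 genes were positive in MOLM-14, 7135 in MV4-11, 5746 in OCI-AML3 and 7458 in KG-1a. These counts and shares are the background against which the gene lists below are read. The median log2 fold change over all genes was -0.02, and the single-line medians were 0 in MOLM-14, -0.01 in MV4-11, -0.20 in OCI-AML3 and 0 in KG-1a. Since no gene passed the threshold, every fold change below is a measured value with its standard error (SE) and not a called change.

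**Figure D1:**
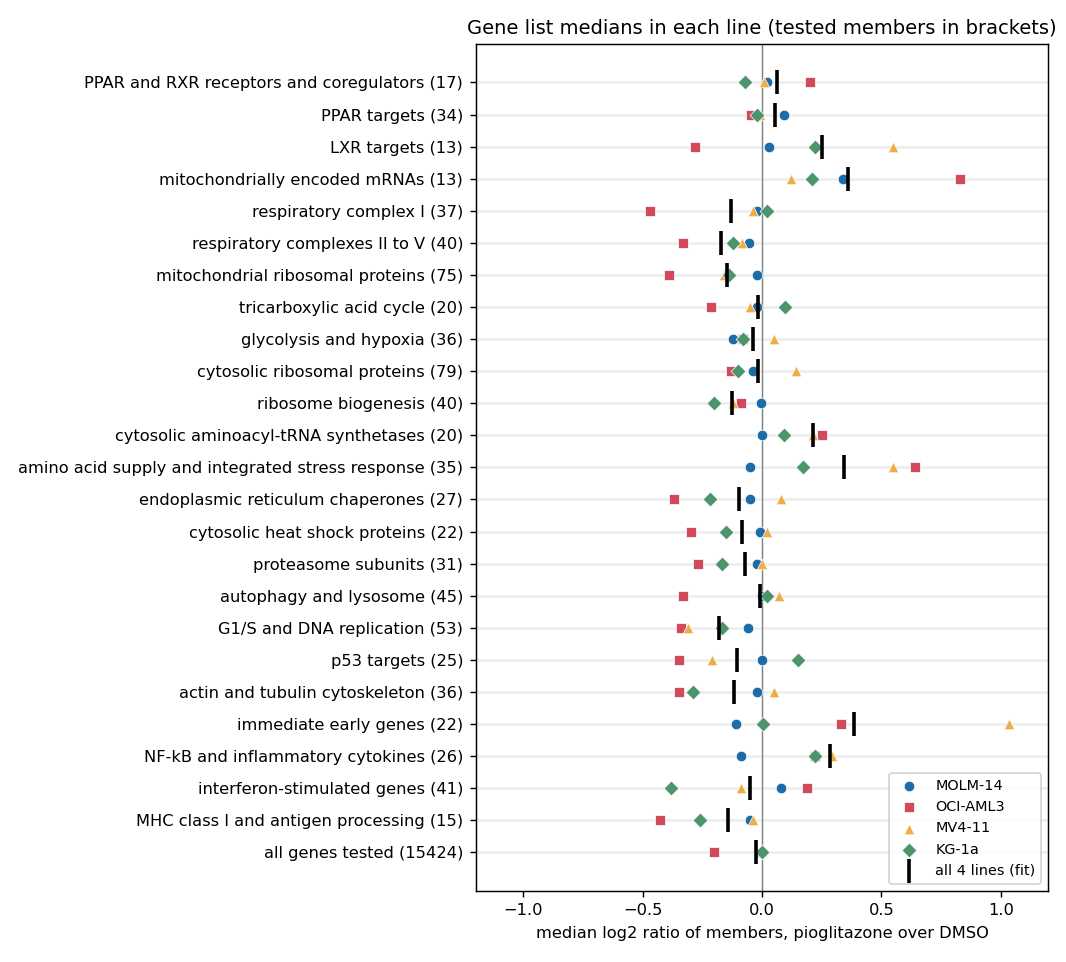
Median log2 ratio of pioglitazone over DMSO (x axis) for the tested members of 24 gene lists and for all genes (rows), with a coloured symbol for each line and a black bar for the fit over all 4 lines. Amino acid supply genes and immediate early genes lie to the right in OCI-AML3 and MV4-11, G1/S and respiratory chain lists lie to the left, and OCI-AML3 often lies farthest from 0.

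A sequence element was looked for in genes of amino acid supply. Transcription factor ATF4 drives many such genes when amino acids run short or mitochondria are under stress, through a short element written TGATGNAA, where N is any base. This motif was searched on both strands of RefSeq promoter windows (GRCh38.p14, 250 bases before to 50 bases after the start). It was present in 6 of the 16 windows found for cytosolic aminoacyl-tRNA synthetase genes (37.5%), in 5 of 29 for the list of amino acid supply and the integrated stress response (17.2%), and in 3.7% of all promoters. All 11 sites of both lists are shown because the element is the one ATF4 is known for, while most windows of both lists lack it. Each line gives at most 30 bases of the gene's own strand, 5′ to 3′, with the motif or its reverse complement in capitals.
ASNS, chr7:97872458-97872487, minus strand: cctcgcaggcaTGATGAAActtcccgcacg
CHAC1, chr15:40953251-40953280, plus strand: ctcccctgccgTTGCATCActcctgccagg
SLC3A2, chr11:62881725-62881748, plus strand: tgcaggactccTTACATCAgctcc
SLC7A1, chr13:29595663-29595692, minus strand: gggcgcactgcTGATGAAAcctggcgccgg
ATF3, chr1:212565205-212565234, plus strand: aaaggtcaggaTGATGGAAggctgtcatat
AARS1, chr16:70289675-70289704, minus strand: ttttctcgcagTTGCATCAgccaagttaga
CARS1, chr11:3057407-3057436, minus strand: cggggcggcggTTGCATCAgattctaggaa
IARS1, chr9:92293692-92293721, minus strand: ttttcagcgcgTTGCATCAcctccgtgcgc
MARS1, chr12:57488053-57488082, plus strand: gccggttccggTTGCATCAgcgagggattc
NARS1, chr18:57621804-57621833, minus strand: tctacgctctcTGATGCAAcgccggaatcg
TARS1, chr5:33440956-33440985, plus strand: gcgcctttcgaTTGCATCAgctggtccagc

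A match is a description of letters in the window and not evidence of binding. All 6 synthetase genes with the motif had a positive log2 fold change, between 0.21 and 0.41, with a median of 0.24. Of the 10 synthetase genes whose window held no match, 4 had a positive value, their median was -0.04 and they ranged from -0.31 to 0.37. By line, the 6 genes with the motif had medians of 0.02 in MOLM-14, 0.37 in MV4-11, 0.36 in OCI-AML3 and 0.25 in KG-1a. The 10 without it had medians of -0.05, 0.11, -0.05 and -0.09 in the same order. In the list of amino acid supply the sign did not follow the motif, since all 5 genes with it (median 0.61) and 22 of 24 without it (median 0.34) had positive values. SLC3A2, a subunit of amino acid transporters, and SLC7A1, an amino acid transporter, had the lowest values of those 5, at 0.26 and 0.20. Synthetase genes without a window in the table were left out of this split. The split by motif was looked at after the fold changes were known and was not tested.

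**Figure D2:**
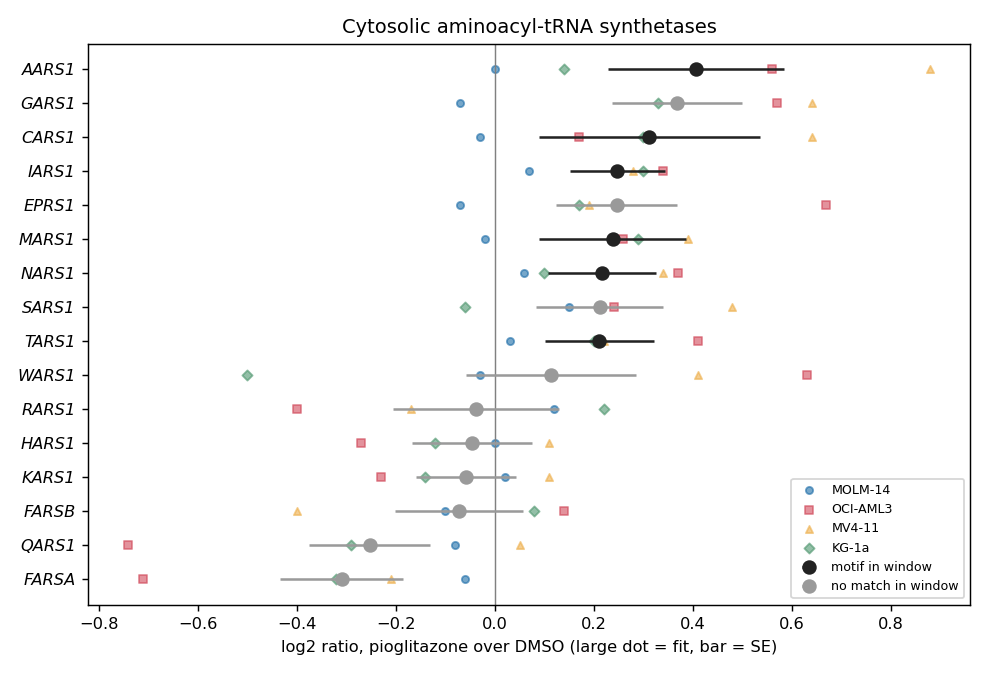
Log2 ratio of pioglitazone over DMSO (x axis) for the 16 tested cytosolic aminoacyl-tRNA synthetase genes with a promoter window (rows), with the fit and its SE as large dots coloured by the presence of the TGATGNAA motif in the promoter window and single lines as small symbols. The black dots of the 6 genes with the motif all lie to the right of 0, and the grey dots of the 10 without it lie on both sides.

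ASNS, which makes asparagine from aspartate, had the smallest p of the amino acid list. Its level was 39.0 CPM with DMSO and 42.7 CPM with pioglitazone in MOLM-14, 19.2 and 33.95 CPM in MV4-11, 51.6 and 162.9 CPM in OCI-AML3, and 8.24 and 14.6 CPM in KG-1a. It was higher with pioglitazone in every line, while the levels of the groups overlapped because the lines differ. Its log2 fold change was 0.85 (SE 0.21, adjusted p = 0.559). PSAT1, an enzyme of serine synthesis, had log2 ratios of -0.03 in MOLM-14, 0.82 in MV4-11, 1.16 in OCI-AML3 and 0.83 in KG-1a (log2 fold change 0.69, SE 0.20). CHAC1, which degrades glutathione and is a known marker of ATF4 activity, had ratios of -0.27, 1.26, 1.01 and 1.44 in the same order (0.89, SE 0.40). SLC7A11, the cystine importer, was 1.11 (SE 0.39), with 7.11 CPM with DMSO and 22.8 CPM with pioglitazone in KG-1a. ATF4 itself stood at 0.41 (SE 0.21). In the whole list, 32 of 35 tested members were positive, 5 were positive in all 4 lines, 5 were among the genes higher without adjustment, and the median log2 fold change was 0.34. The list medians were -0.05 in MOLM-14, 0.55 in MV4-11, 0.64 in OCI-AML3 and 0.17 in KG-1a, so the list was not higher in MOLM-14. Without the pioglitazone libraries of KG-1a and OCI-AML3 the median was 0.44. It was 0.21 without the OCI-AML3 DMSO library, 0.21 without the MV4-11 pioglitazone library and 0.54 without the MOLM-14 DMSO library.

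The 20 aminoacyl-tRNA synthetases, which load amino acids onto tRNAs, had a median of 0.21, with 13 positive members and 4 among the genes higher without adjustment. The median was 0 in MOLM-14, where 9 of 20 were positive, and over all lines it was 0.09 without the OCI-AML3 DMSO library, 0.11 without the MV4-11 pioglitazone library and 0.14 without the OCI-AML3 pioglitazone library. The 4 genes at the unadjusted level were GARS1, IARS1, LARS1 and AARS1. IARS1 was 387.2 and 406.4 CPM in MOLM-14, 288.9 and 350.3 CPM in MV4-11, 524.6 and 661.9 CPM in OCI-AML3, and 127.5 and 157.1 CPM in KG-1a, with DMSO given first. Its log2 fold change was 0.25 (SE 0.10, adjusted p = 0.806). FARSA, a subunit of the phenylalanine enzyme, ran the other way at -0.31 (SE 0.12).

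TXNIP and ARRDC3, which belong to the same arrestin family, had values of opposite sign. TXNIP restrains glucose uptake and binds thioredoxin. TXNIP was 151.6 CPM with DMSO and 100.9 CPM with pioglitazone in MOLM-14, 113.2 and 56.4 CPM in MV4-11, 73.8 and 38.5 CPM in OCI-AML3, and 144.5 and 48.8 CPM in KG-1a. Every pioglitazone library was lower than its DMSO partner, and the groups overlapped across lines. Its log2 fold change was -0.98 (SE 0.24, adjusted p = 0.626). In DESeq2 the adjusted p was 0.00863, and in edgeR without the MOLM-14 pioglitazone library it was 0.025 with a log2 fold change of -1.31. ARRDC3 went from 2.74 to 4.23 CPM in MOLM-14, from 2.28 to 10.6 CPM in MV4-11, from 4.74 to 14.0 CPM in OCI-AML3 and from 9.37 to 26.4 CPM in KG-1a, and its log2 fold change of 1.41 (SE 0.34, adjusted p = 0.542) was the highest of the 12 genes with the smallest p on the positive side. The 36 genes of glycolysis and hypoxia had a median of -0.04, with 20 negative, against 8251 of 15424 over all genes. Of the 36, 7 were negative in all 4 lines and 5 were among the genes lower without adjustment. NDRG1, a hypoxia gene, was -0.57 (SE 0.14), and the glycolytic enzymes TPI1 and PGAM1 were -0.34 (SE 0.12) and -0.29 (SE 0.10).

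**Figure D3:**
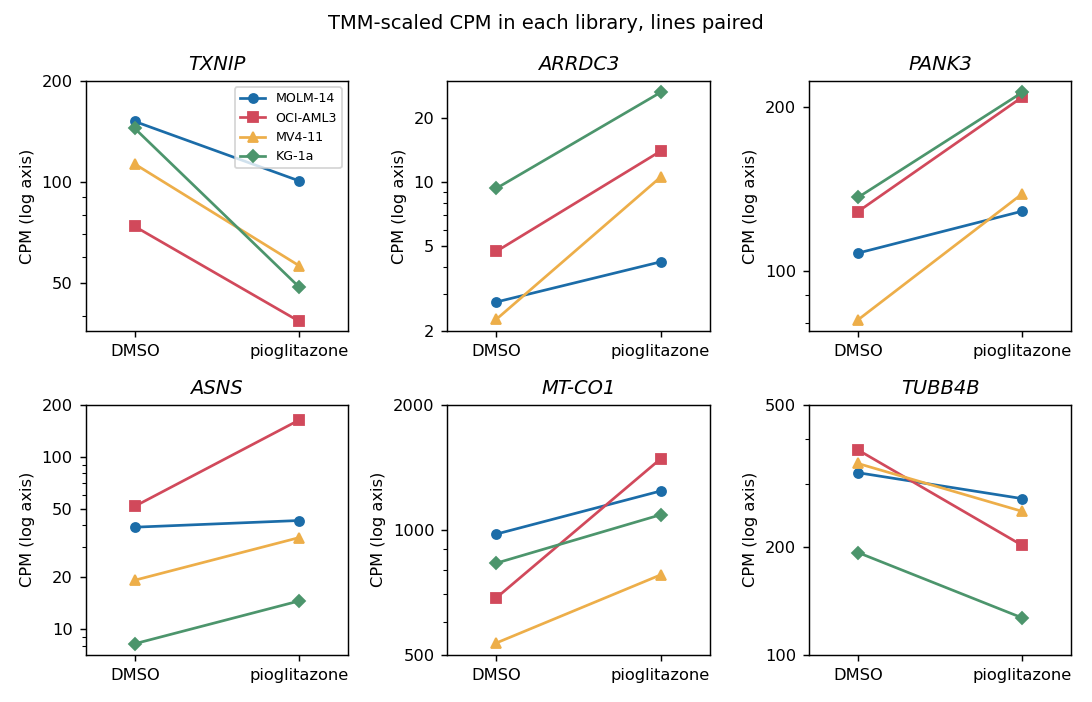
TMM-scaled CPM on log axes for 6 genes with DMSO and with pioglitazone, each line joining the 2 libraries of 1 cell line. TXNIP and TUBB4B slope down and ARRDC3, PANK3, ASNS and MT-CO1 slope up in all 4 lines, with the flattest slope in MOLM-14 for each of the 6 genes.

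The drug's own receptor was scarcely expressed. PPARG reached at most 1.42 CPM, without TMM scaling, in any of the 8 libraries and was not tested. FABP4 and PDK4, both textbook PPAR targets, had 0 counts, and 18 of the listed PPAR targets did not pass the low-count filter. RXRA, the partner receptor, was -0.12 (SE 0.13), PPARA was 0.09 (SE 0.26), and PPARD was 0.25 (SE 0.36). Among the 17 receptors and coregulators tested, 11 were positive and 0 were among the genes at the unadjusted level in either direction. Of 34 PPAR targets tested, 18 were positive and 16 negative, with a median of 0.05. ACSL3, which activates fatty acids for lipid droplet growth, was 84.7 and 98.6 CPM in MOLM-14, 76.3 and 124.3 CPM in MV4-11, 91.9 and 133.1 CPM in OCI-AML3, and 71.9 and 103.5 CPM in KG-1a. The ACSL3 values with pioglitazone lay above every DMSO value, so the groups did not overlap, and the log2 fold change was 0.50 (SE 0.12, adjusted p = 0.559). CPT1A, which imports fatty acids into mitochondria, was 0.33 (SE 0.13), PLIN2, a lipid droplet coat, was 0.19 (SE 0.34), and ANGPTL4, an inhibitor of lipoprotein lipase, was -0.75 (SE 0.82). The log2 ratio of PLIN2 was 0.07 in MOLM-14, 1.82 in MV4-11, 0.05 in OCI-AML3 and -0.89 in KG-1a, so its lines differed in sign. ANGPTL4 was 12.9 CPM with DMSO and 5.63 CPM with pioglitazone in KG-1a and at most 0.09 CPM in the other lines. CD36, a fatty acid transporter, was 0.09 (SE 0.47). The mitochondrial binding proteins CISD1, MPC1 and MPC2 were -0.01 (SE 0.17), -0.22 (SE 0.17) and 0 (SE 0.17). CISD3, of the same list, was -0.50 (SE 0.20), with log2 ratios of 0.06 in MOLM-14, -0.56 in MV4-11, -1.23 in OCI-AML3 and -0.74 in KG-1a. Of the 5 list members tested, 4 were negative. Their median was -0.01 over all lines, 0.06 in MOLM-14 and MV4-11, -0.83 in OCI-AML3 and -0.19 in KG-1a.

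PANK3, a pantothenate kinase at the first step of coenzyme A synthesis, had the smallest p outside the sterol, fatty acid, NRF2, histone and G2/M lists. It was 107.7 and 128.6 CPM in MOLM-14, 81.2 and 138.4 CPM in MV4-11, 128.4 and 208.4 CPM in OCI-AML3, and 136.3 and 212.6 CPM in KG-1a, with DMSO first. The groups overlapped only in the DMSO value of KG-1a, which lay above the pioglitazone value of MOLM-14. Its log2 fold change was 0.59 (SE 0.12, adjusted p = 0.277), and DESeq2 gave an adjusted p of 0.00014. GPCPD1, which cleaves glycerophosphocholine, was 0.67 (SE 0.18), with a log2 ratio of 1.27 in MV4-11 and between 0.34 and 0.52 in the other lines.

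Transcripts of the mitochondrial genome and nuclear genes of the same respiratory chain lay on opposite sides of 0. Of 13 mitochondrially encoded mRNAs, 11 had a positive log2 fold change, 4 were positive in all 4 lines and 4 were among the genes higher without adjustment, and the median was 0.36. By line the medians were 0.34 in MOLM-14, 0.12 in MV4-11, 0.83 in OCI-AML3 and 0.21 in KG-1a. MT-CO1, the catalytic subunit of cytochrome oxidase, was 976.8 and 1240 CPM in MOLM-14, 534.3 and 779 CPM in MV4-11, 686.2 and 1482 CPM in OCI-AML3, and 831.6 and 1087 CPM in KG-1a. It was higher with pioglitazone in every line, with a log2 fold change of 0.60 (SE 0.13, adjusted p = 0.392). MT-ND1 and MT-ND4 of complex I were 0.55 (SE 0.16) and 0.39 (SE 0.14). MT-CYB and MT-ND3 were -0.12 (SE 0.17) and -0.12 (SE 0.21), so the mitochondrial genes were not uniform. Leaving out the pioglitazone libraries of KG-1a and OCI-AML3 gave a list median of 0.15, and leaving out the one of OCI-AML3 alone also gave 0.15. As a share of all counts, unscaled, mitochondrial mRNA was higher with pioglitazone in 3 lines but went from 0.23% to 0.2% in KG-1a. All counts include the entries of ribosomal DNA origin, which were 0.18% in KG-1a with DMSO and 23.62% with pioglitazone. Mitochondrial ribosomal RNA took a larger share of counts with pioglitazone in all 4 lines, 7.25% and 8.04% in MOLM-14, 6.83% and 8.41% in MV4-11, 6.75% and 10.75% in OCI-AML3, and 10.02% and 10.32% in KG-1a. A larger share of mitochondrial RNA and a smaller share of other RNA cannot be told apart in bulk libraries.

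Nuclear genes of the respiratory chain had mostly small negative values. Of 37 complex I genes, 31 were negative, 9 were negative in all 4 lines, and the median was -0.13. By line it was -0.02 in MOLM-14, -0.04 in MV4-11, -0.47 in OCI-AML3 and 0.02 in KG-1a, where 19 of 37 were positive, so the value came mostly from OCI-AML3. It was -0.06 without the pioglitazone libraries of KG-1a and OCI-AML3, -0.06 without the OCI-AML3 DMSO library and -0.20 without the KG-1a DMSO library. Of 40 genes of complexes II to V, 34 were negative, 19 were negative in all 4 lines, 9 were among the genes lower without adjustment, and the median was -0.17. The line medians ran from -0.06 in MOLM-14 to -0.33 in OCI-AML3, and the median was -0.11 without the OCI-AML3 DMSO library and -0.08 with libraries thinned to the shallowest. UQCR10 of complex III was 76.3 and 74.5 CPM in MOLM-14, 97.0 and 80.4 CPM in MV4-11, 120.1 and 67.4 CPM in OCI-AML3, and 86.3 and 61.5 CPM in KG-1a, with a log2 fold change of -0.39 (SE 0.13, adjusted p = 0.724). COX5B of complex IV was -0.41 (SE 0.15) and CYC1 of complex III was -0.30 (SE 0.11). In this list, ATP5F1A of the ATP synthase rests on transcripts that exchanged places. ATP5F1A-202 stood at 2957 CPM with DMSO and 320.7 CPM with pioglitazone in MV4-11 and at 3589 and 286.6 CPM in KG-1a, and without that transcript the mean log2 ratio of the gene was 3.13 where it was -0.87 with all transcripts. Enzymes of the tricarboxylic acid cycle had a median of -0.02, with 12 of 20 negative, against 8251 of 15424 over all genes.

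Mitochondrial ribosomal proteins, which translate the mitochondrial mRNAs, were the longest of these lists. Of 75 tested members, 65 were negative, 28 were negative in all 4 lines (against 10.0% of all genes), 12 were among the genes lower without adjustment, and the median was -0.15. The line medians were -0.02 in MOLM-14, -0.16 in MV4-11, -0.39 in OCI-AML3 and -0.14 in KG-1a, and the median was -0.09 without the pioglitazone libraries of KG-1a and OCI-AML3. MRPL12 was 35.9 and 28.95 CPM in MOLM-14, 30 and 23.0 CPM in MV4-11, 35.2 and 20.1 CPM in OCI-AML3, and 39.6 and 20.4 CPM in KG-1a. All 4 pioglitazone values lay below the lowest DMSO value, and the log2 fold change was -0.59 (SE 0.16, adjusted p = 0.625). MRPL12 overlaps the gene ENSG00000262660 on the same strand. MRPL54 and MRPS18C were -0.54 (SE 0.16) and -0.60 (SE 0.20). The letters CTTCCGG, the core bound by ETS factors, were found on either strand in 41.8% of the promoter windows of this list and in 43.8% of those of complexes II to V, against 10.7% of all promoters. They did not follow the sign of the lists, since they were in 8 of 16 windows of aminoacyl-tRNA synthetases and in 39.4% of ribosome biogenesis, 33.3% of cytosolic ribosomal proteins and 15.6% of complex I. Cytosolic ribosomal proteins differed from their mitochondrial counterparts, with a median of -0.02, 33 positive and 46 negative members, and 69 of 79 positive in MV4-11, where the median was 0.14. Ribosome biogenesis genes had 32 of 40 negative members and a median of -0.13 (-0.08 without the pioglitazone libraries of KG-1a and OCI-AML3 and -0.07 without the KG-1a DMSO library), with NOP16 at -0.43 (SE 0.15) and the methyltransferase FBL at -0.28 (SE 0.11).

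Transcript composition moved with these values, most in OCI-AML3. Genes were divided into 5 equal groups by the GC content of their transcripts, and the OCI-AML3 median ran from -0.06 in the lowest group to -0.48 in the highest. By transcript length the OCI-AML3 median ran from -0.37 in the shortest group to -0.01 in the longest. In KG-1a the median ran from 0.21 to -0.12 with GC, in MOLM-14 from 0.08 to -0.06, and in MV4-11 from -0.04 to -0.03. Mitochondrial ribosomal protein transcripts had a median length of 1127 bases and nuclear complex I transcripts of 755 bases, against 2574 bases for all protein-coding genes tested. Median GC content was 50.9% for mitochondrial ribosomal proteins, 51.6% for complex I and 47.9% for complexes II to V, against 49.6%. The part of composition in these values was not tested.

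**Figure D4:**
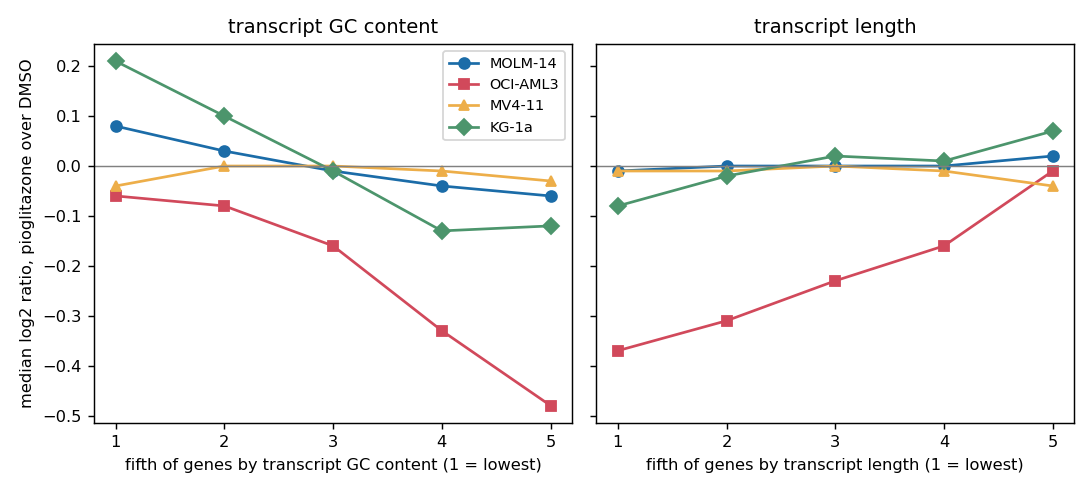
Median log2 ratio of pioglitazone over DMSO (y axis) in 5 equal groups of genes by transcript GC content (left) and by transcript length (right), with 1 line for each cell line. OCI-AML3 shows the steepest gradients, from -0.06 to -0.48 with GC content, and MV4-11 is nearly flat.

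Genes of DNA replication were lower in most lines. Of 53 G1/S genes, 47 had a negative log2 fold change, 24 were negative in all 4 lines and 17 were among the genes lower without adjustment (3.87% of all genes), and the median was -0.18. The list medians were -0.06 in MOLM-14, -0.31 in MV4-11, -0.34 in OCI-AML3 and -0.17 in KG-1a, and without the pioglitazone libraries of KG-1a and OCI-AML3 the median was -0.15. With libraries thinned to the shallowest it was -0.09. The letters TTTCCCGC, a core element of E2F factors, which time the entry into S phase, were found on either strand in 10 of 44 windows of this list (22.7%) and in 1.7% of all promoters. Sites of 5 of the 10 members, chosen with their values known, are shown in the same format because these genes carry the values that follow.
MCM7, chr7:100101566-100101595, minus strand: cagctcggaccGCGGGAAAcccggcgcctg
CDT1, chr16:88803743-88803772, plus strand: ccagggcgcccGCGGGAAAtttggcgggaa
UHRF1, chr19:4909476-4909505, plus strand: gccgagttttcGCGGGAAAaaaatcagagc
LIG1, chr19:48170440-48170469, minus strand: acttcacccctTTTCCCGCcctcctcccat
PCNA, chr20:5126663-5126692, minus strand: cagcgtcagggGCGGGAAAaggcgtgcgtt

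MCM7, a subunit of the replicative helicase, was 668.2 and 603.3 CPM in MOLM-14, 724.5 and 504.4 CPM in MV4-11, 681.8 and 377.4 CPM in OCI-AML3, and 281.6 and 227.1 CPM in KG-1a, with DMSO first. It was lower with pioglitazone in every line (log2 fold change -0.44, SE 0.15, adjusted p = 0.735). CDT1, which licenses replication origins, was -0.37 (SE 0.14), UHRF1, which maintains DNA methylation, was -0.39 (SE 0.14), and LIG1, a DNA ligase, was -0.34 (SE 0.13). PCNA, the sliding clamp, was 0.03 in MOLM-14, -0.60 in MV4-11, -0.78 in OCI-AML3 and -0.08 in KG-1a. Of the 10 members with the letters, RFC3 and GINS3 lay near 0, at -0.02 (SE 0.16) and -0.06 (SE 0.18). TK1, thymidine kinase, was -0.52 (SE 0.17). MYC was -0.02 (SE 0.12) and the cell cycle inhibitor CDKN1A was 0 (SE 0.54). Of 25 p53 targets, 15 were negative, against 8251 of 15424 over all genes. DDB2, a DNA damage sensor, was -0.43 (SE 0.12), while MDM4, an inhibitor of p53, was 0.65 (SE 0.15). MDM4 was 49.3 and 67.8 CPM in MOLM-14, 47.9 and 64.4 CPM in MV4-11, 64.7 and 150.6 CPM in OCI-AML3, and 23.4 and 33.4 CPM in KG-1a.

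Of 9 tubulin genes in the list of actin and tubulin genes, 7 had negative and 2 had positive values, a count made after the values were seen. TUBB4B, a beta tubulin, was 322.9 and 273.3 CPM in MOLM-14, 342.6 and 251.8 CPM in MV4-11, 373.8 and 202.3 CPM in OCI-AML3, and 193.2 and 126.9 CPM in KG-1a (log2 fold change -0.52, SE 0.15, adjusted p = 0.627). TUBA4A was -0.82 (SE 0.21), TUBG1 was -0.48 (SE 0.15), TUBB was -0.34 (SE 0.11) and TUBA1C was -0.34 (SE 0.12). The log2 ratio of TUBA4A was -2.28 in OCI-AML3, where its level with pioglitazone was 5.25 CPM. A count of 3 corresponded to 2.74 CPM in that library before TMM scaling, so this ratio rests on few counts. TUBA1A was 0.97 (SE 0.40), with 47.2 CPM with DMSO and 254.4 CPM with pioglitazone in MV4-11. In the list of 36 actin and tubulin genes, 25 were negative, 6 were among the genes lower and 3 among the genes higher without adjustment, and the median was -0.12. That median was 0.05 in MV4-11, where 22 of 36 were positive, and over all lines it was 0.04 without the pioglitazone libraries of KG-1a and OCI-AML3, -0.03 without the one of OCI-AML3 and -0.24 without the one of MV4-11.

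**Figure D5:**
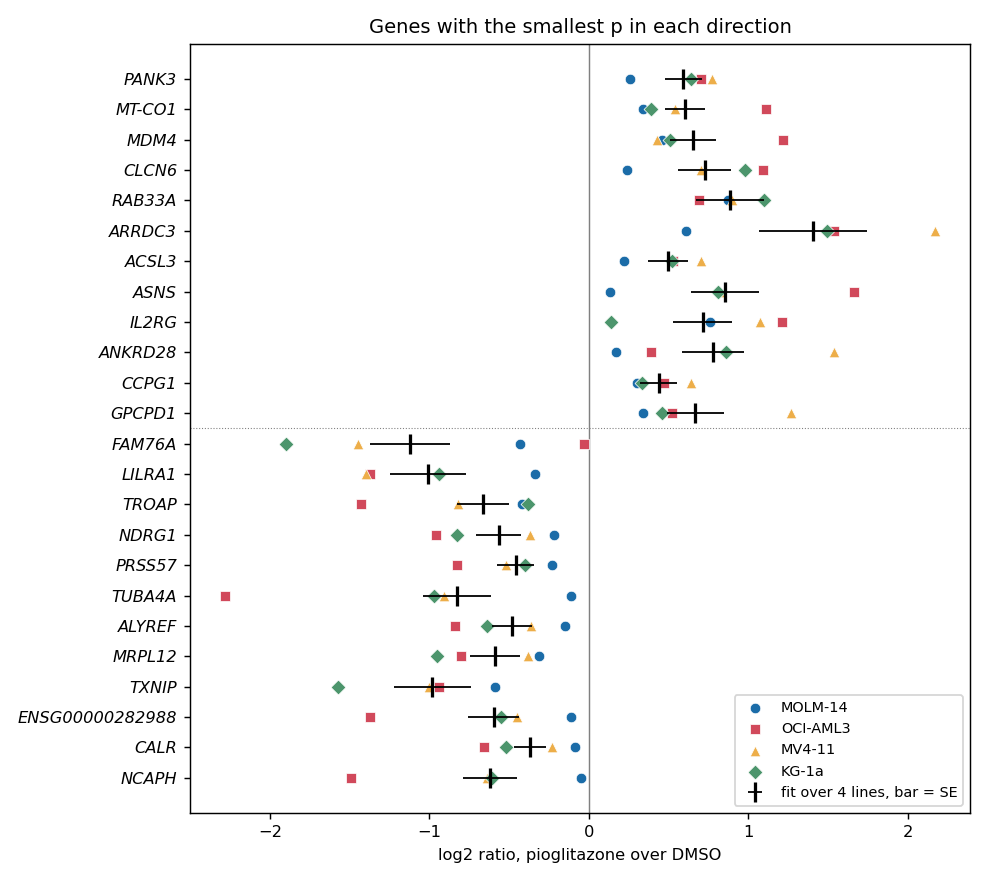
Log2 ratio of pioglitazone over DMSO (x axis) for the 12 genes with the smallest p in each direction outside the sterol, fatty acid, NRF2, histone and G2/M lists, with single lines as coloured symbols and the fit with its SE in black. All symbols lie on the side of the fit because the same sign in 4 lines was part of the choice, and MOLM-14 lies nearest to 0 for most genes.

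The list of 24 genes chosen by the smallest p also held genes without a list of their own. RAB33A, a small GTPase of the Golgi, had log2 ratios of 0.87, 0.90, 0.69 and 1.1 in MOLM-14, MV4-11, OCI-AML3 and KG-1a (log2 fold change 0.88, SE 0.21). CLCN6, an endosomal chloride exchanger, was 0.73 (SE 0.17), ANKRD28, a phosphatase subunit, was 0.78 (SE 0.20), and CCPG1, a receptor for autophagy of the endoplasmic reticulum, was 0.44 (SE 0.12). CCPG1 overlaps the readthrough gene DNAAF4-CCPG1 on the same strand. IL2RG, the common cytokine receptor chain, was 161.1 and 177 CPM in KG-1a and at most 23.4 CPM in the other lines. Its log2 fold change was 0.71 (SE 0.18), and its level in OCI-AML3 was 2.58% of that in KG-1a. On the negative side, TROAP, a spindle protein, was -0.66 (SE 0.17), ALYREF, an mRNA export factor, was -0.48 (SE 0.13), PRSS57, a granule protease, was -0.46 (SE 0.12), and NCAPH, a condensin subunit, was -0.62 (SE 0.17). ENSG00000282988, on the minus strand of chromosome 6 (26195595 to 26199293, GRCh38, GENCODE 29), was -0.60 (SE 0.16) and overlaps the histone genes H2AC7 and H3C4 on the same strand, so their reads could not be separated here. FAM76A was -1.12 (SE 0.25), but without its transcript FAM76A-205 the mean log2 ratio of the remaining transcripts was 0.41.

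Chaperones of the endoplasmic reticulum had mostly negative values. Of 27 tested, 19 were negative and the median was -0.10. The line medians were -0.05 in MOLM-14, 0.08 in MV4-11, where 17 of 27 were positive, -0.37 in OCI-AML3 and -0.22 in KG-1a, and without the pioglitazone libraries of KG-1a and OCI-AML3 the median was -0.02 (-0.03 without the one of OCI-AML3 alone). CALR, calreticulin, was 2114 and 1992 CPM in MOLM-14, 1489 and 1266 CPM in MV4-11, 2524 and 1601 CPM in OCI-AML3, and 1755 and 1226 CPM in KG-1a (log2 fold change -0.37, SE 0.10, adjusted p = 0.627). SDF2L1 and DNAJC3, cofactors of the chaperone BiP, were -0.67 (SE 0.23) and -0.27 (SE 0.12). The log2 ratio of SDF2L1 was -2.16 in OCI-AML3 and between -0.72 and -0.24 in the other lines. Its OCI-AML3 level with pioglitazone was 7.0 CPM, in a library where a count of 3 corresponded to 2.74 CPM before TMM scaling. Cytosolic heat shock proteins had a median of -0.09 with 0 of 22 members at the unadjusted level in either direction, and their regulator HSF1 was -0.19 (SE 0.13). Of 31 proteasome subunits, 24 were negative with a median of -0.07, led by PSMC3 at -0.44 (SE 0.14). Without the pioglitazone libraries of KG-1a and OCI-AML3 the medians of heat shock proteins and proteasome subunits were -0.02 and -0.01. The immunoproteasome subunit PSMB10 was -0.52 (SE 0.16) and NLRC5, the activator of MHC class I genes, was -0.44 (SE 0.14), and 12 of 15 genes of MHC class I and antigen processing were negative, with a median of -0.14 that was -0.075 without the pioglitazone libraries of KG-1a and OCI-AML3.

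Signalling genes had unlike values in the 4 lines. Immediate early genes, which answer growth factors and stress within minutes to hours, were at a median of 1.04 in MV4-11, where 19 of 22 were positive, of 0.33 in OCI-AML3, of 0 in KG-1a and of -0.11 in MOLM-14. FOS went from 34.8 to 141.3 CPM in MV4-11 and from 18.8 to 21.1 CPM in MOLM-14, and its log2 fold change was 1.09 (SE 0.51, adjusted p = 0.867). NR4A1, an orphan nuclear receptor, had log2 ratios of 0.27, 2.53, 1.71 and 0.46 in MOLM-14, MV4-11, OCI-AML3 and KG-1a (1.38, SE 0.56). Its level with DMSO was at most 5.85 CPM. In OCI-AML3 it was 0.46 CPM with DMSO and 1.75 CPM with pioglitazone. A count of 3 corresponded to 2.74 CPM in that pioglitazone library before TMM scaling, so this ratio rests on very few counts. The median of the immediate early list over all lines was 0.39, and -0.02 without the MV4-11 pioglitazone library. Differences between lines could not be tested with 1 library per line and drug. Of 26 genes of the NF-kB list, 19 were positive and the median was 0.29. That median was 0.04 without the MV4-11 pioglitazone library, 0.05 without the OCI-AML3 DMSO library and 0.54 without the MOLM-14 DMSO library, and in MOLM-14 it was -0.09, with 10 of 26 positive. The list held the feedback inhibitor TNFAIP3 at 0.45 (SE 0.19), NFKBIZ at 0.63 (SE 0.28) and the activation marker CD83 at 0.79 (SE 0.32). Interferon-stimulated genes had a median of -0.38 in KG-1a, where 7 of 41 were positive, and of 0.08 in MOLM-14, 0.19 in OCI-AML3 and -0.09 in MV4-11. BCL2L2, which protects from apoptosis, was 0.70 (SE 0.23) and overlaps the readthrough gene BCL2L2-PABPN1, and 16 other BCL2 family genes included BID at -0.26 (SE 0.14). The homing receptor CXCR4 was -0.53 (SE 0.19), and the myeloid factors CEBPA and IKZF1 were -0.56 (SE 0.19) and -0.33 (SE 0.13). STAT5A and STAT5B were 0.11 (SE 0.14) and 0.09 (SE 0.11), and CITED2, a partner of CBP and p300, was -0.14 (SE 0.17).

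Primary granule genes were lower by value, and low levels of genes specific to other lines also differed between the groups in some lines. All 15 primary granule genes tested were negative, 9 in all 4 lines, and 1 was among the genes lower without adjustment. Their median was -0.57, and in KG-1a it was -1.25. The median was -0.26 without the pioglitazone libraries of KG-1a and OCI-AML3, -0.36 without the one of KG-1a and -0.37 without the OCI-AML3 DMSO library. MPO, RNASE2 and CTSG had log2 ratios of -1.25, -1.26 and -1.24 in KG-1a, where their level was 3.9%, 0.6% and 0.48% of the level in the highest line, MOLM-14. Genes specific to a line were protein-coding autosomal genes at 30 CPM or more, unscaled, in each of its libraries. In the lines that were neither source nor receiver they stayed under 5% of the source level. In at least 1 library of the receiving line they were under 1% of it, so a low share was part of the choice. For 5 genes specific to MOLM-14, the median was 0.25% of their MOLM-14 level in the KG-1a DMSO library and 0.06% in the KG-1a pioglitazone library. In MV4-11, 4 genes specific to MOLM-14 stood at 2.19% and 0.05%, and 11 genes specific to OCI-AML3 at 1.55% and 0.02%. Counting in each line only the granule genes at 10% or more of the highest line's level left 3 of 15 in KG-1a, with a median of -0.31. The medians of the members so kept were -0.08 in MOLM-14, -0.72 in OCI-AML3 and -0.45 in MV4-11. Of 29 monocyte and macrophage genes, 20 were negative, with a median of -0.17, and the line medians were -0.01 in MOLM-14, -0.02 in MV4-11, -0.52 in OCI-AML3 and -0.67 in KG-1a. Without the pioglitazone libraries of KG-1a and OCI-AML3 that median was -0.045. S100A9, a calcium binding protein of monocytes, was -0.88 (SE 0.25), LILRB2, an inhibitory receptor, was -1.41 (SE 0.45), and the surface enzyme CD38 was -0.99 (SE 0.32). LILRB2 was at most 4.03 CPM in MOLM-14, MV4-11 and OCI-AML3. With a pseudocount of 1 CPM its log2 ratio in KG-1a was -2.08, and -0.20 without the transcript LILRB2-204, with the other lines unchanged. The log2 ratio of CD38 was 0.06 in MOLM-14 and negative in the other lines. CD38 in MV4-11 stood at 2.67% of its level in OCI-AML3. In OCI-AML3 the sign was the opposite for genes of KG-1a. MHC class II genes had a median of 2.81 there and of -0.40 in KG-1a, where they are expressed and 0 of 12 were positive. For 63 genes specific to KG-1a, OCI-AML3 reached 0.12% of the KG-1a level with DMSO and 2.03% with pioglitazone. The origin of these low counts was not traced. Whether reads of other lines have a part in the values of genes that a line scarcely expresses was not tested.

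Short RNAs that lack a poly(A) tail were also measured, since the libraries were made from total RNA. Of 39 C/D box snoRNAs, 29 were positive (median 0.50), and of 58 H/ACA box snoRNAs, 43 were positive (median 0.24). Their OCI-AML3 medians were 1.66 and 1.86 and their MOLM-14 medians -0.29 and -0.43. Without the pioglitazone libraries of KG-1a and OCI-AML3 the medians were 0.02 and 0.10, and without the one of OCI-AML3 alone they were 0.09 and -0.04. Among long noncoding RNAs, GAS5, a host of snoRNAs, was 0.32 (SE 0.12) and positive in all 4 lines. NEAT1, the scaffold of paraspeckles, was 0.67 (SE 0.30), with a ratio of 2.21 in OCI-AML3 and between 0.14 and 0.32 in the other lines.

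Few members of the remaining classes were at the unadjusted level. LXR targets, among them exporters of sterols, had a median of 0.25 with 8 of 13 members positive and 0 at the unadjusted level in either direction. Without the MV4-11 pioglitazone library the median was -0.002, and in OCI-AML3 it was -0.28, with 4 of 13 positive. LPCAT3, a phospholipid remodelling enzyme, had the smallest p of them at 0.30 (SE 0.14). Medians were 0.07 for 17 genes of iron handling, 0.04 for 25 genes of the STAT5 list, 0.005 for 11 genes of the MYC network, -0.01 for 45 genes of autophagy and lysosomes, -0.03 for 34 splicing factors and -0.05 for 23 genes of purine and pyrimidine synthesis. The 458 zinc finger genes had a median of 0.06, with 2 members higher and 4 lower at the unadjusted level, and 223 solute carriers a median of -0.01, with 2 higher and 11 lower. PTGER4, a receptor for prostaglandin E2, was 0.56 (SE 0.24) and DHODH, an enzyme of pyrimidine synthesis, was -0.29 (SE 0.15).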

How the data were processed

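Total RNA was sequenced with a stranded kit after ribosomal RNA removal, per the labels' protocols. The deposited values are unnormalized estimated counts, 1 per transcript and library. GRCh38, STAR, featureCounts, fastp, FastQC and DESeq2 are named in the submitters' processing notes. Versions, annotation release and the tool behind the estimated counts (89.8% of values above 0 not whole at a tolerance of 1e-06) are not given in the sources used here.

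Counts of 202941 of 203027 transcripts were matched to GENCODE 29, summed to 57865 genes and rounded to whole numbers. filterByExpr (minimum count 10, minimum total 15, cell line as group) kept 15424 genes. edgeR 4.0.16 (TMM, robust quasi-likelihood, R 4.3.3) was fitted to all 12 libraries with cell line and treatment as terms and 6 residual degrees of freedom, with Benjamini-Hochberg adjustment at 0.05. The replicate number is the cell line, which pairs the libraries. limma 3.58.1 and DESeq2 1.42.0 gave alternatives. Single-line log2 ratios use a prior count of 2. The fit was tested on simulated data. A count of 3 corresponded to between 0.05 and 2.74 CPM, before TMM scaling, among the 8 libraries, which covers counting error only.

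The members and gene lists were chosen with earlier results of these data known. Named genes are the 12 per direction with the smallest p, the same sign in 4 lines, a mean log2 CPM of at least 2 and no place in the cholesterol, fatty acid, NRF2, histone and G2/M lists, then up to 3 per list by the same measure and 25 fixed genes around PPAR signalling. Genes named beyond this rule (PSAT1, CHAC1, SLC7A11, ATF4, GARS1, AARS1, FARSA, TUBA1A, TUBB, TUBA1C, MT-CYB, MT-ND3, MCM7, CDT1, UHRF1, LIG1, PCNA, RFC3, GINS3, ATP5F1A, ATF3, CARS1, MARS1, TARS1, SLC3A2, SLC7A1 and SCD) were chosen after their values were seen. Promoter windows and their coordinates come from RefSeq, GRCh38.p14. Motifs searched on both strands were TGATGNAA (ATF4 element), TTTCCCGC (E2F core), CTTCCGG (ETS core), CACGTG (E-box), CCAAT (NF-Y box), TGACGTCA (cyclic AMP element), TTTGGCGC (second E2F core) and TGANTCA (AP-1 element). NRF1, PPAR response and NF-kB elements were also looked at. The motifs shown in the text were picked after these searches, with the fold changes known.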

Additional observations from a re-analysis of the deposited data

Results flagged for a closer look

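In 5 of 75 results looked at (51 lists and 24 genes), 1 of the 4 lines stood far from the other 3, by a gap above Dixon's critical share of the whole range. Chance gives such a gap in about 1 of 20 groups. All 5 stood apart in OCI-AML3, whose pioglitazone library held 1.1 M (mega-counts). The medians there were -0.47 for respiratory complex I, 0.54 for the HOXA cluster with MEIS1 and PBX3, -0.21 for all protein-coding genes and -0.36 for antisense transcripts. The log2 ratio of MDM4 was 1.22 in OCI-AML3, against between 0.43 and 0.51 in the other lines.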

How the results depend on the processing

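The count of genes called was 0 under upper-quartile and RLE scaling, a stricter filter of 4 CPM, limma-voom, the 8 libraries alone, rRNA entries left out, and without the pioglitazone libraries of KG-1a and OCI-AML3. It was 223 with no low-count filter, 74 with DESeq2 and 14 with each library thinned to the shallowest. Leaving out 1 library at a time gave between 0 and 14, and the 14 came without the MOLM-14 pioglitazone library. The number of genes at the unadjusted level, 919, was 1598 with no low-count filter, 401 without the pioglitazone libraries of KG-1a and OCI-AML3, and between 619 and 1187 with 1 library left out. With no replicate block, which ignores the pairing by line, it was 85. All 24 genes with the smallest p kept their sign in every one of the 19 settings. They had been chosen for the same sign in 4 lines and the smallest p in these data, so a kept sign is no separate support. List medians that changed sign in at least 1 setting include PPAR targets, LXR targets, the tricarboxylic acid cycle, MHC class II, H/ACA box snoRNAs, cytosolic ribosomal proteins, heat shock proteins, the proteasome, the actin and tubulin list, immediate early genes and interferon-stimulated genes. The lists of amino acid supply, aminoacyl-tRNA synthetases, mitochondrially encoded mRNAs, respiratory complexes, mitochondrial ribosomal proteins and G1/S genes kept theirs in all 17 settings run for lists, with medians that moved by over 1.5 times in some of them. Keeping only members at 10% or more of the highest line's level, and leaving out single transcripts, were chosen after seeing the data.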
